A study of Oryzias latipes with 7 samples.

Results

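In medaka ovarian follicles, a set of 100 probe sets was lower at 8 h and 2 h before spawning than at all earlier times. They were chosen among 47773 probe sets above a filter on low values, out of 63698 on the array. They were selected on their 7 log2 intensities, which were sorted for each probe set. A probe set became a member where the largest gap between neighbouring values was at least 2 (4-fold) and only the 8 h and 2 h arrays lay below it. The rule selected 0.209% of the probe sets kept. Its mirror image, high at 8 h and 2 h only, selected 236 (0.494%). Since these 7 arrays chose the members, all values below are descriptions without a test.

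The samples were isolated follicles of Oryzias latipes, a small egg-laying fish that spawns daily under long days. They were collected at 47, 35, 32, 23, 14, 8 and 2 h before spawning, and the series title names late vitellogenesis, oocyte maturation and pre-ovulation as the stages covered. The fish were kept at 27 °C with 14 h of light and 10 h of dark, with no genetic change or treatment named. RNA of 100 follicles, the largest and second-largest of the ovaries, was pooled for each time and hybridised to 1 Cy3 array, so no time point has a replicate, and precision is limited by having 7 arrays. The values are RMA intensities, a background-corrected and normalized brightness summarised over the probes of a probe set.

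A follicle consists of an oocyte enclosed by granulosa and theca cells. During vitellogenesis the oocyte takes up yolk protein while the follicle cells make estrogen. A surge of luteinizing hormone then shifts steroid production to a progestin that makes the oocyte resume meiosis, and the follicle wall is later opened for ovulation. Late oocytes synthesise little RNA and clear part of their stored maternal RNA during maturation, whereas follicle cells go on transcribing. In RNA of whole follicles, fewer cells of a type and less RNA per cell cannot be told apart.

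The files used here give no gene name for any probe set identifier, and 0 identifiers matched an entry of the reference gene table. The members could therefore not be assigned to genes, pathways or cell types, and marker genes of granulosa, theca, oocyte, blood or other cells could not be looked up. Whether several members report on 1 gene is likewise unknown. The 4 probe sets given by identifier are the 2 with the largest difference between 8 h and 14 h and the 2 that were most above their 8 h level at 2 h. Others are described by their rank.

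The times of 5 arrays differ between the deposited sources. Times here are those of the per-array files. In the deposited series table the array filed under 8 h stands at 8 h too, but the array filed under 2 h stands at 23 h, so the members would be low at 23 h and 8 h and high at 14 h and 2 h. With the table's times the same rule selected 2 probe sets, of which 0 were among the 100. One label field of the 2 h sample reads 5 h. The array numbers also fall into a 6-digit series (47, 23, 14 and 2 h) and an 8-digit series (35, 32 and 8 h), and median intensities over all probe sets were 599 to 653 in the 8-digit arrays and 682 to 703 in the 6-digit arrays.

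Most members, like most probe sets kept, lay above their array's median before they were low, but some were dim throughout. The member with the lowest maximum had 100 to 182 from 47 h to 14 h. Their median intensity at 47, 35, 32, 23 and 14 h was 2598, 1709, 2373, 3154 and 1696, and it was 118 at 8 h and 94.2 at 2 h. Over all probe sets kept, the median stayed between 1473 (8 h) and 1669 (47 h). On the array's own scale, the median member stood at percentile 30.5 of all probe sets at 8 h and 28.0 at 2 h, against percentiles 63.2 to 73.5 in the earlier 5 arrays. Of the 100 members, 17 lay above the array's median at 8 h and 8 at 2 h, against 77 (14 h) to 90 (47 h and 32 h) in the earlier arrays. Among the probe sets kept, 66.4% (2 h) to 66.7% (32 h) lay above it on each array. The rule chose the members for low late values, so this contrast is shown only for scale.

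**Figure D1:**
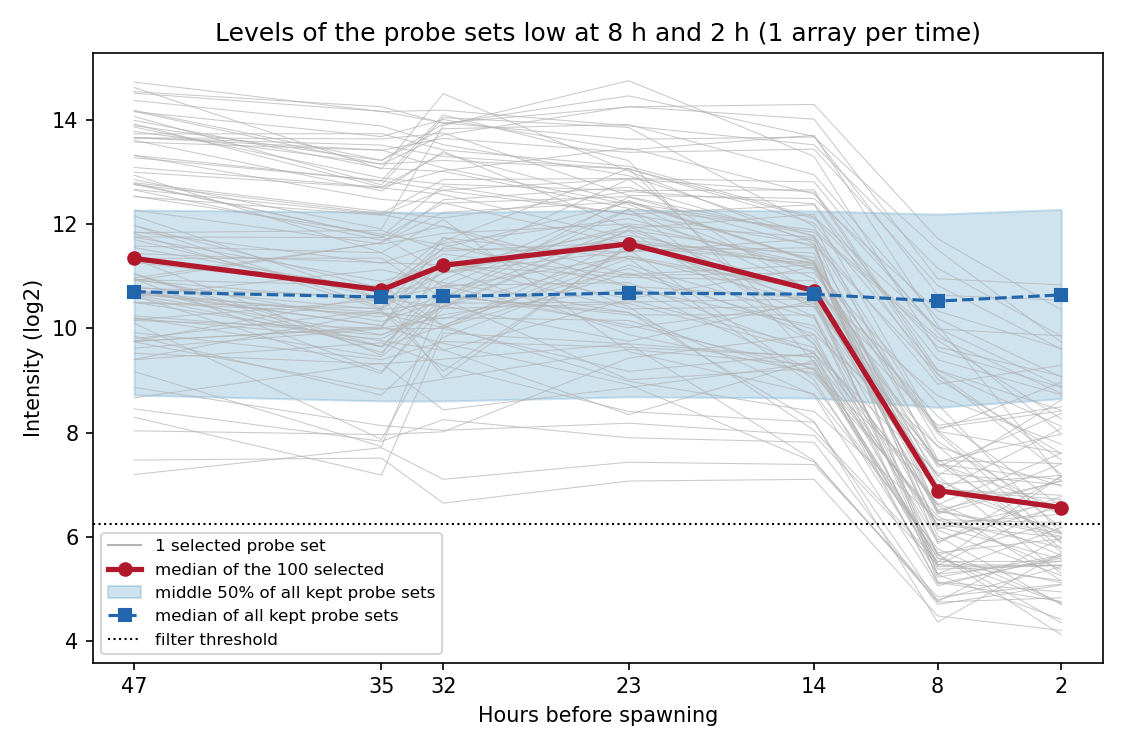
Log2 intensity (vertical axis) of the 100 selected probe sets (grey lines) over hours before spawning, with their median in red, 1 array per time. The band and the dashed line give the middle 50% and the median of the 47773 probe sets kept, and the dotted line the filter threshold of 75.8. The red median stays at or above the dashed line up to 14 h and lies near the threshold at 8 h and 2 h, while the dashed line stays level.

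Not every member was near the bottom of the array when low. The threshold of the filter, the 25th percentile of the mean log2 value, corresponds to an intensity of 75.8. At 8 h 38 members and at 2 h 45 were under it, against 2152 and 2016 of the 47773 probe sets kept. No member was under it in any of the earlier 5 arrays, where 1468 (32 h) to 1720 (14 h) of the probe sets kept were. The rule nearly ensures this, since such a member would need both late values at least 4-fold lower still. Both late values were under it in 30 members, where 1.30% of all probe sets kept had both late values there. At least 1 late value was under it in 53 members, against 7.42% of the probe sets kept. The rule asks for low late values, so the shares in this paragraph are shown only for scale. At the other end, 8 members were above their array's median at both 8 h and 2 h, as were 60.9% of the probe sets kept. In 3 of them both late intensities exceeded 1000, against 52.7% of the probe sets kept. Those 3 had 1310 to 3385 at 8 h and 2 h, against 9085 to 23951 from 47 h to 14 h. At 2 h those 3 stood at percentiles 59.4 to 64.5 of the array. The working name of the group, switched off, therefore does not describe them or the rest of those 8 members. The values carry no detection call, so absence of a transcript could not be assessed for any member.

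The size of the gap ranged widely. Its median was 2.72 on the log2 scale (6.58-fold, the distance from the lowest earlier array to the higher late array), with quartiles of 2.30 and 3.23. It was under 3 (8-fold) in 68 members, at least 4 (16-fold) in 8 and at least 5 (32-fold) in 2. Near the limit, 12 members had a gap of 2.0 to 2.1 and 9 other probe sets of the same shape one of 1.9 to 2.0. The member just inside, with a gap of 2.01, had 861, 1045, 841, 485, 173, 27.6 and 42.9 from 47 h to 2 h. The probe set just outside, with a gap of 1.97, had 7835, 3255, 15820, 27954, 9506, 828 and 386 in the same order.

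**Figure D2:**
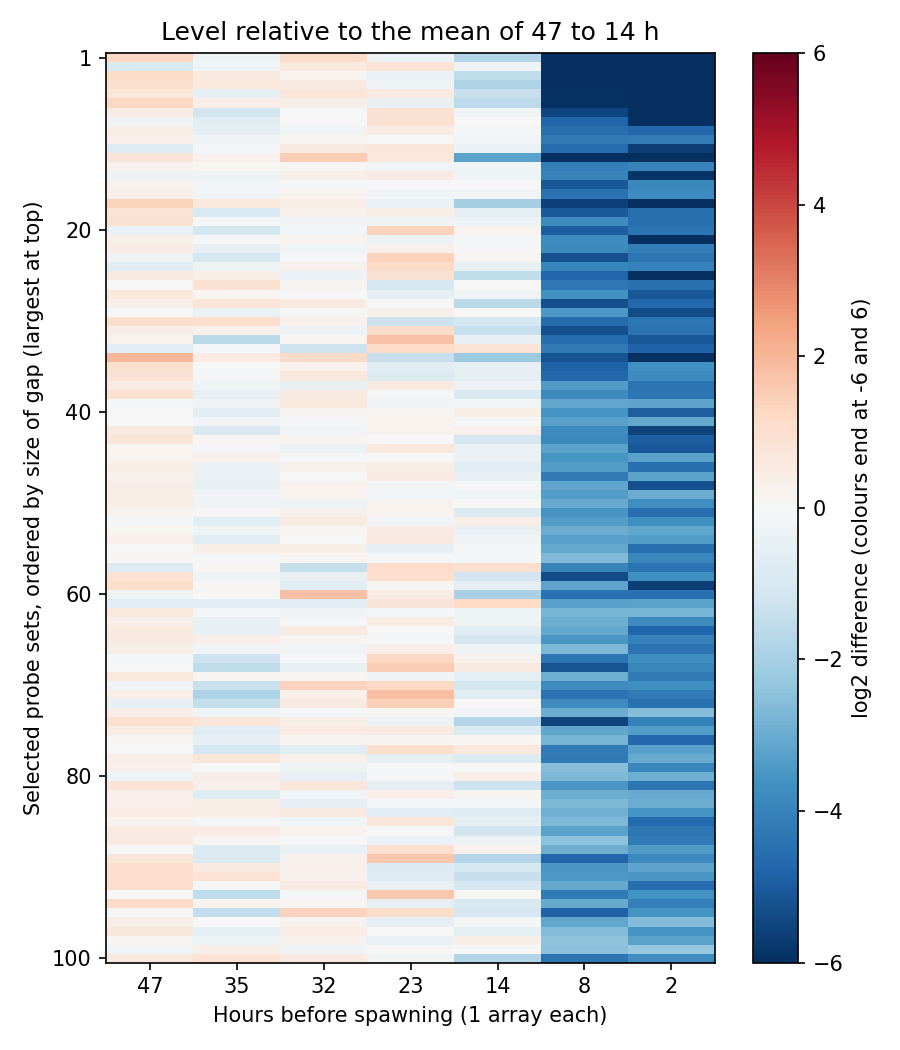
Log2 level of each selected probe set relative to its mean over 47 to 14 h, with 1 row per probe set, ordered by the size of the gap, and 1 column per array. The 8 h and 2 h columns are blue throughout, by selection, and 14 h is paler blue in some rows. Differences beyond -6 are drawn in the darkest blue.

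At 8 h a typical member had about 10% of its 14 h intensity. The log2 difference, 8 h minus 14 h, had a median of -3.30 (9.88-fold lower, 10.1% of the 14 h intensity left), with quartiles of -4.18 and -2.70 and a range from -6.56 to -2.03. All 100 were at least 4-fold lower by the rule, where 3.41% of all probe sets kept were. Of the members, 61 were at least 8-fold lower, against 0.913% of the probe sets kept, and 29 at least 16-fold lower, against 0.329%. The rule used this contrast, so the shares are shown only for scale. The 8 h and 14 h arrays are of different array-number series, so time and series cannot be told apart in this contrast. The whole 8 h array had a median 0.19 lower on the log2 scale than the 14 h array. With each array centred on its median the members' median difference was -3.12, and 92 of the 100 were still at least 4-fold lower.

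Probe set K_OLAT0000S00007432 had the largest difference between 8 h and 14 h. Its intensity was 2007 at 47 h, 3200 at 35 h, 5679 at 32 h, 6707 at 23 h, 3285 at 14 h, then 34.8 at 8 h and 27.0 at 2 h. It was highest at 23 h, and at 8 h it was 94.4-fold lower than at 14 h. On its array it stood at percentile 11.2 at 8 h, against 74.3 at 14 h. Probe set OLAT0001S00000034 came next and had the widest gap of all members, 82.2-fold. It had 25317 at 47 h, 8552 at 35 h, 23324 at 32 h, 8309 at 23 h, 3173 at 14 h, then 38.6 at 8 h and 21.3 at 2 h. It stood at percentile 98.5 of the array at 47 h and 98.2 at 32 h, was already lower at 14 h, and was 82.2-fold lower at 8 h than at 14 h. Both late intensities of these 2 probe sets lie under the filter threshold, and with an offset of 64 before the logarithm their log2 differences were -5.08 and -4.98 in place of -6.56 and -6.36.

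The differences within each array-number series are given for their size only, since the rule puts both late arrays at least 4-fold below all 5 earlier ones. Within the 8-digit series the members' median was -3.64 (12.5-fold lower) for 8 h against the mean of 35 h and 32 h, with the smallest difference at -2.31. Over all probe sets kept the same median was -0.15. Within the 6-digit series the members' median was -4.17 (18.0-fold lower) for 2 h against the mean of 47, 23 and 14 h, with the smallest at -2.25, and -0.02 over all probe sets kept. The 32 h array lies 24 h before the 8 h array and shares its time of day and number series. Against it, the members' median at 8 h was -3.82 (14.1-fold lower), and 78 were at least 8-fold lower (0.992% of the probe sets kept). For 2 h against 14 h, within the 6-digit series, the median was -3.85. By the times used here, the 35 h and 32 h arrays are the closest in time and come nearest to a replicate. In the deposited series table these arrays stand at 2 h and 14 h. Between the 35 h and 32 h arrays, 95% of the probe sets kept differed by less than 1.02. Beyond that, 194 of the probe sets kept were at least 4-fold higher at 32 h than at 35 h and 175 at least 4-fold lower. Differences of the size that the rule asks for thus occur between these 2 arrays too. Both are of the 8-digit series, so the pair does not show the spread between the series. Among the members, 18 were at least 2-fold higher at 32 h than at 35 h and 2 at least 2-fold lower. Among the 47773 probe sets kept, 1248 were at least 2-fold higher and 1267 lower, so the members differed more often in this pair. At least 4-fold higher at 32 h were 3 members, and none was 4-fold lower. The largest difference among the members was 2.88, with 1564 at 32 h and 212 at 35 h.

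Before 14 h the members did not share 1 course. Over the earlier 5 arrays their values spanned a median of 1.54 on the log2 scale (2.90-fold), against 0.87 (1.83-fold) over all probe sets kept, and single members ranged from 0.27 to 4.75. The flattest member had 12245, 10974, 12860, 10682 and 11136 from 47 h to 14 h, and then 1815 at 8 h and 777 at 2 h. The member with the widest span had 10258, 7306, 17530, 9557 and 653 over the same 5 times, and then 47.8 at 8 h and 34.7 at 2 h. In the first the whole change lay after 14 h, whereas the second was 11.2-fold lower at 14 h than at its next lowest earlier time and lower again at 8 h.

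In 34 members the earlier 5 arrays stayed within 2-fold, against 58.6% of the probe sets kept. Their median intensity was 2622 at 47 h, 1827 at 14 h, then 175 at 8 h and 103 at 2 h. In 35 members the highest level fell at 47, 35 or 32 h and the 14 h level was at least 2-fold below it, against 15.6% of the probe sets kept. Their median was 7056 at 47 h, 3593 at 35 h, 4363 at 32 h, then 3144 at 23 h and 1526 at 14 h, followed by 91.2 at 8 h and 66.8 at 2 h. In 24 of the 35 the highest level was at 47 h. The lower 14 h level is part of how these 35 were grouped.

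A further 30 members fitted neither description (19.2% of the probe sets kept), and 26 of them were highest at 23 h. Their median was 1838 at 47 h, 1290 at 35 h, 1663 at 32 h, 3895 at 23 h, 1977 at 14 h, then 88.7 at 8 h and 89.8 at 2 h. Their median difference between 8 h and 14 h was -4.12, compared with -3.02 in the members within 2-fold and -2.91 in those declining from an earlier high. The 14 h level enters both the grouping and this difference, so the 3 medians are not independent of how the members were grouped. Among the 30 was the member with the highest intensity at 23 h of all 100. It had 7425 at 47 h, 3847 at 35 h, 15263 at 32 h, 27712 at 23 h, 10107 at 14 h, then 761 at 8 h and 467 at 2 h. Only 1 member was highest at 14 h and at least 2-fold above 47 h, where 6.57% of the probe sets kept were. It had 262, 249, 258, 690 and 942 from 47 h to 14 h, and 42.9 at 8 h and 43.7 at 2 h.

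**Figure D3:**
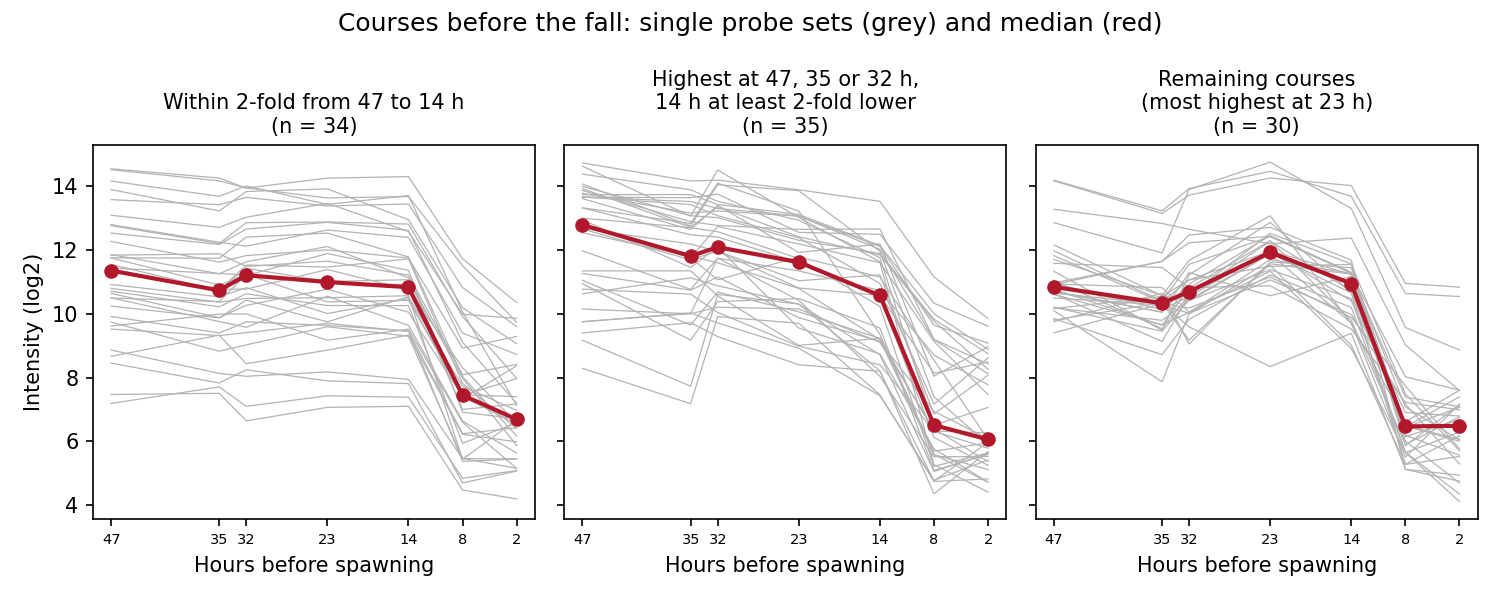
Log2 intensity over hours before spawning for 99 of the 100 selected probe sets, split by their course from 47 to 14 h, with single probe sets in grey and the median in red. The left panel is level up to 14 h, the middle panel declines from 47 h, and the right panel has its highest median at 23 h; the 1 member highest at 14 h is not drawn.

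Over the earlier 5 arrays, 77 members were highest at 47 h (40) or 23 h (37), and 4 at 14 h. Among the probe sets kept, 22.0% were highest at 47 h, 16.5% at 23 h and 21.4% at 14 h. The lowest of the 5 values was at 14 h in 42 members and at 35 h in 33, against 27.7% and 24.2% of the probe sets kept. The 47 h and 23 h arrays lie 24 h apart and are both of the 6-digit series, whereas 35 h and 32 h are of the 8-digit series. Between these arrays time of day and number series cannot be told apart. The 14 h array is also of the 6-digit series but of another time of day, and it was highest in 4 members and lowest in 42. The cause of the pattern was not tested. With centred arrays the number highest at 47 h or 23 h was 67, against 17.1% (47 h) and 14.1% (23 h) of the probe sets kept. The number highest at 32 h was then 20 in place of 10. That is near the 21.8% of the probe sets kept with centred arrays, which was 17.1% without centring.

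Step by step, the members' median log2 difference was -0.56 for 35 h against 47 h, 0.31 for 32 h against 35 h, 0.02 for 23 h against 32 h and -0.63 for 14 h against 23 h. The medians over all probe sets kept were -0.06, -0.004, 0.01 and -0.03. At 35 h 83 members were lower than at 47 h (54.3% of the probe sets kept), 21 of them at least 2-fold (7.14%). At 14 h 78 members were lower than at 23 h (53.9%), 33 at least 2-fold (4.41%) and 10 at least 4-fold (0.839%). In 13 members the 14 h level was at least 2-fold below each of the 4 earlier levels, against 1.94% of the probe sets kept. Only 5 members were lower at every step from 47 h to 2 h.

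The 14 h array also set how many probe sets were selected. Without it the rule selected 190, the 100 members and 90 more. In all 90 the 14 h level was below the other 4 earlier levels, which the rule makes likely but not certain. It was at least 2-fold below them in 60, and above both late levels in 79. Their median was 2577 at 47 h, 1518 at 35 h, 1661 at 32 h, 1057 at 23 h, 240 at 14 h, then 104 at 8 h and 101 at 2 h. The 79 stood at an intermediate level at 14 h, while 11 were at or below a late level. The members' 8 h median of 118 compares with 104 in the 90. Leaving out another earlier array gave 99 to 135.

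The rule keeps the difference between 2 h and 8 h smaller than the gap but does not fix its direction. This log2 difference, 2 h minus 8 h, had a median of -0.34 with quartiles of -1.09 and 0.36, against 0.11 over all probe sets kept. At 2 h 64 members were lower than at 8 h, as were 44.3% of the probe sets kept. The 2 h and 8 h arrays are of different array-number series. Time and number series therefore cannot be told apart in this difference or in the counts made from it. The medians of the 2 h and 8 h arrays differ by 0.19 on the log2 scale, and centring removes only such a shift of a whole array. With centred arrays the members' median was -0.53 and 70 were lower at 2 h, against 54.0% of the probe sets kept. In 61 members the late levels were within 2-fold of each other (72.6% of the probe sets kept).

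In 31 members the 2 h level was at least 2-fold below the 8 h level (12.4% of the probe sets kept), by up to 7.65-fold, and in 3 at least 4-fold below (3.86%). With centred arrays these counts were 37 and 8. Centring lowers this difference by 0.19 in every probe set, and the shares of the probe sets kept at these limits were not computed with it. In 15 of the 31 the 2 h value was under the filter threshold, and in 4 of these 31 the 8 h value was. The 31 had a median of 84.5 at 2 h, against 318 at 8 h and 3379 at 14 h. The member with the largest such difference had 18336, 13165, 16519, 11035 and 13390 from 47 h to 14 h, and then 1069 at 8 h and 140 at 2 h. It was 12.5-fold lower at 8 h than at 14 h and another 7.65-fold lower at 2 h than at 8 h. The member brightest at 47 h behaved likewise, with 27201 at 47 h, 11803 at 14 h, then 2286 at 8 h and 922 at 2 h.

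In 8 members the 2 h level was at least 2-fold above the 8 h level (15.0% of the probe sets kept), by at most 3.16-fold, and in none 4-fold above (4.40%). In 5 of the 8 the 8 h value was under the filter threshold, so the folds of those 5 rest on dim signals. In 2 of those 5 the 2 h value was under it too. Probe set OLAT0001S00026520 had the largest such difference. Its 8 h value was under the threshold. Its intensity was 3338 at 47 h, 1529 at 35 h, 1358 at 32 h, 3751 at 23 h, 837 at 14 h, then 45.4 at 8 h and 144 at 2 h. It was 3.16-fold higher at 2 h than at 8 h, and still 5.83-fold lower at 2 h than at 14 h. Probe set K_OLAT0000S00023094 had 12976 at 47 h, 11015 at 35 h, 8643 at 32 h, 5339 at 23 h, 1983 at 14 h, then 144 at 8 h and 395 at 2 h. It was lower at each time down to 8 h and 2.75-fold higher at 2 h than at 8 h. By the rule no member could return to within 4-fold of its lowest earlier level at 2 h.

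**Figure D4:**
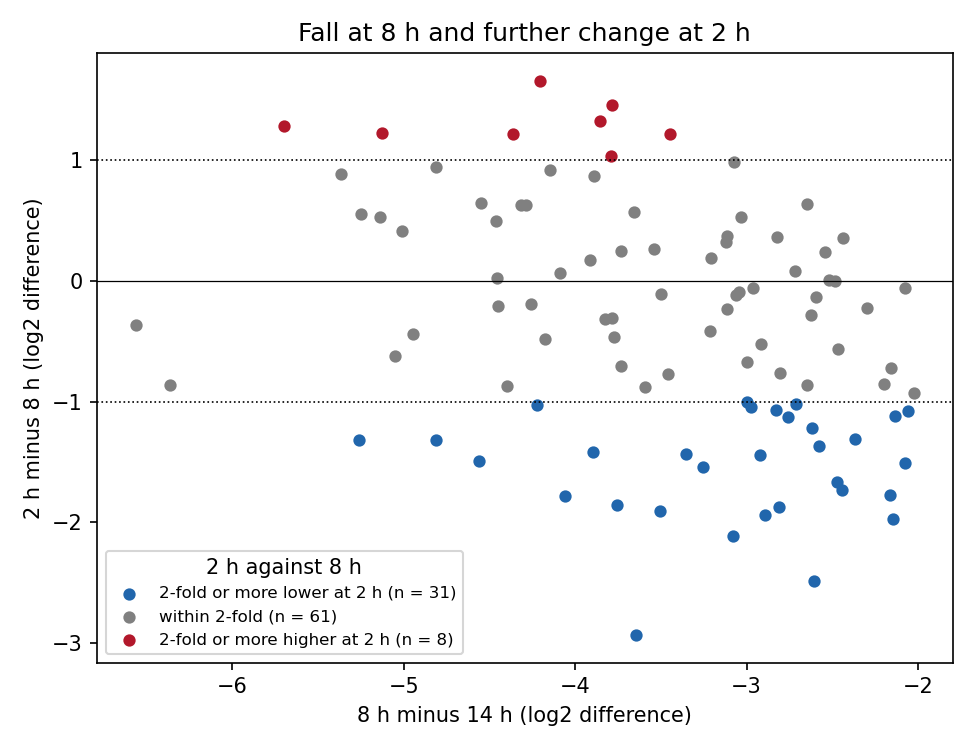
Log2 difference of 2 h minus 8 h (vertical) against 8 h minus 14 h (horizontal) for the 100 selected probe sets, coloured by the change from 8 h to 2 h, with dotted lines at 2-fold. Most points (61) lie between the dotted lines, 31 lie below them and 8 above. Both axes use the 8 h array, so an error in its values would tilt the cloud.

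**Figure D5:**
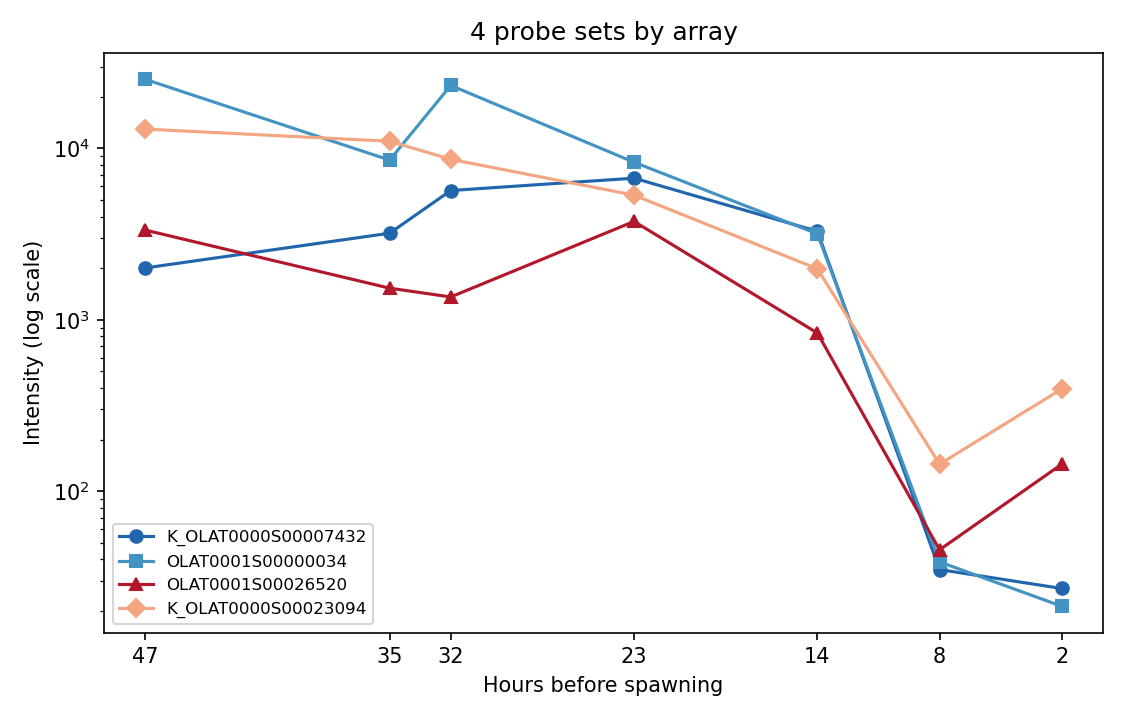
Intensity on a log axis over hours before spawning for the 4 probe sets given by identifier, 1 array per time. The highest of the 4 at 8 h has 144, the lowest at 14 h has 837, and OLAT0001S00026520 and K_OLAT0000S00023094 lie higher at 2 h than at 8 h.

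Another 18 probe sets also had a gap of at least 2 above 8 h and 2 h but a larger one elsewhere, and the rule left them out. In 15 of these the larger gap lay between the late arrays with 2 h lower, in 1 with 8 h lower, and in 2 among the earlier arrays. The rule thus limits how far the members can differ between 8 h and 2 h.

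The number of probes and the series of identifiers are features that the rule did not use. All 100 members were measured with 6 probes, as were 99.3% of the probe sets kept. Identifiers beginning with K_OLAT, 1 of the 2 series of identifiers on the array, made up 57 of the 100 members and 35.5% of the probe sets kept. Their share was 51.0% among the 247 probe sets low at 2 h alone, 48.2% among the 112 low at 8 h alone, 46.0% among the 100 low from 23 h onward and 43.6% among the 236 high at 8 h and 2 h. A share above that of the array was therefore common to these patterns. What the 2 series of identifiers stand for is not stated in these sources. The members' highest intensities, which entered the rule, had a median of 3895. It was 4088 among the 25 probe sets low from 14 h onward, 3089 among those low from 23 h onward, 7033 among those high at 8 h and 2 h, 10067 among those low at 2 h alone, 923 among those low at 8 h alone and 2796 over all probe sets kept. None of these differences was tested.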

How the data were processed

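Per the labels' protocols, total RNA of 100 pooled follicles per time was labelled with Cy3 by random priming and hybridised to 1-colour NimbleGen arrays. The authors deposited intensities on a linear scale, as EXPRS values per the file headers and with RMA named in the submitters' processing notes. Its version and settings and the probe design are not stated in those sources. The series table repeats these intensities to within 0.001 but places 5 of 7 arrays at another time, and was an alternative.

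The stage label gave each array its time. Intensities were converted to log2 without an offset, and only probe sets with a mean above the 25th percentile were kept. Counts, medians and gaps were computed with Python 3.11.15, pandas 2.3.3 and numpy 2.4.6. The selection rule was checked on simulated data with independent noise of the same size on every array. That check does not measure how many probe sets noise could bring into the group in these arrays. With 1 array per time no test was made. The members were chosen with earlier results of these data known, and so were the comparisons. The rule for named genes took the 2 largest falls at 8 h and the 2 largest rises at 2 h. Lists of pathway and marker genes needed gene symbols and could not be applied. Probes per probe set were read from the same files. Alternatives were the filter, the size of the gap, quantile normalization, median centring, an offset of 64, leaving out each earlier array, each array-number series on its own, and the series table's times. Array depth has no counterpart here, and signal over background is unknown.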

Additional observations from a re-analysis of the deposited data

How the results depend on the processing

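The number of probe sets selected (100) was 100 without the filter, 93 after quantile normalization, 91 after median centring and 73 with an offset of 64, sharing 100, 91, 89 and 68 with the members. It was 65 with the filter at the 50th percentile, 420, 180 and 32 with a gap of 1, 1.5 and 3, 190 without the 14 h array, 170 when each array-number series was required to hold the gap on its own, and 2 with the series table's times. The median log2 difference of 8 h minus 14 h was -2.02 with a gap of 1, -2.71 with 1.5 and -4.20 with 3. A different contrast within the 6-digit series, 2 h minus the mean of 47, 23 and 14 h, had a median of -4.17. The share of members with both late values under the threshold (30%) was 10.8% with the filter at the 50th percentile, 18.1% and 50% with a gap of 1 and 3, and 50% with the table's times, where the share lower at 2 h was also 50%, of 2 probe sets. Of the probe sets kept, 1627 were at least 4-fold lower at 8 h than at 14 h. This count was 524 with the stricter filter and 954 with the offset. The changes under the filter and the gap follow from the probe sets these admit; the cause of the others was not tested. No paired analysis was possible because each time has 1 array. With 1 array per time, and 8 h and 2 h in different number series, the order of 8 h and 2 h is not established in any member. In the 30 members with both levels under the threshold, detection calls are also lacking, and folds against such levels are approximate.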
